A study of Saccharomyces cerevisiae with 6 samples.

Results

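The genes described here encode the proteins of the small subunit of the mitochondrial ribosome in Saccharomyces cerevisiae, 31 genes of the 5449 yeast genes read by the arrays. They were chosen by gene symbol, as the probe sets whose single annotated gene is a small subunit protein, and all 31 were found with 1 probe set each. RNA came from anaerobic chemostats (continuous cultures fed with fresh medium) of the strain VTT C-10883. The arrays cover 3 biological replicates with inhibitors, exposed by a step change of the feed to both hydroxymethylfurfural (HMF) and furfural, and 3 biological replicates without inhibitors. HMF and furfural are aldehydes formed when plant sugars break down. Neither the concentrations nor the sampling time and growth rate are stated in the labels. All values are log2 signals, so a difference of log2 signals is a log2 fold change, given throughout as inhibitors over no inhibitors.

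The mitochondrial ribosome descends from a bacterial one. In yeast it makes a handful of membrane proteins of the respiratory chain and the ATP synthase, which are encoded in the mitochondrial genome, and 1 of its own small subunit proteins, Var1. Its small subunit holds the messenger RNA and the decoding site, the large subunit joins amino acids, and nearly all proteins of both are encoded in the nucleus, made in the cytosol and imported. Many of the small subunit proteins have a counterpart in the bacterial small subunit (named S1 to S21 there), while others are found only in mitochondria. Yeast growing without oxygen does not respire but keeps mitochondria.

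With inhibitors the small subunit genes were slightly lower or not distinguishable from the cultures without them, and none rose. Of the 31 genes 11 fell at an adjusted p under 0.05 in limma, or 35.5%, against 22.3% of all 5449 genes that fell. For a rise the counts were 0 of 31, against 19.9% of all genes. MRPS8 was the 1 gene of the set that was higher at an unadjusted p under 0.05, and it was called under 2 of the 16 alternative settings. Counted in either direction, 42.2% of all genes were called, so a call as such is common in this comparison. The changes were small. The largest fall was a log2 fold change of -0.37, at MRPS18, where the signal with inhibitors was 77.5% of the signal without them, and 0 of the 31 genes passed 1.5-fold. The median over the 31 genes was -0.064, against -0.007 over all genes. These shares and medians describe the list, and their difference from all genes was not tested. In RNA from whole cultures, fewer cells with a transcript and less of it per cell cannot be told apart.

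**Figure D1:**
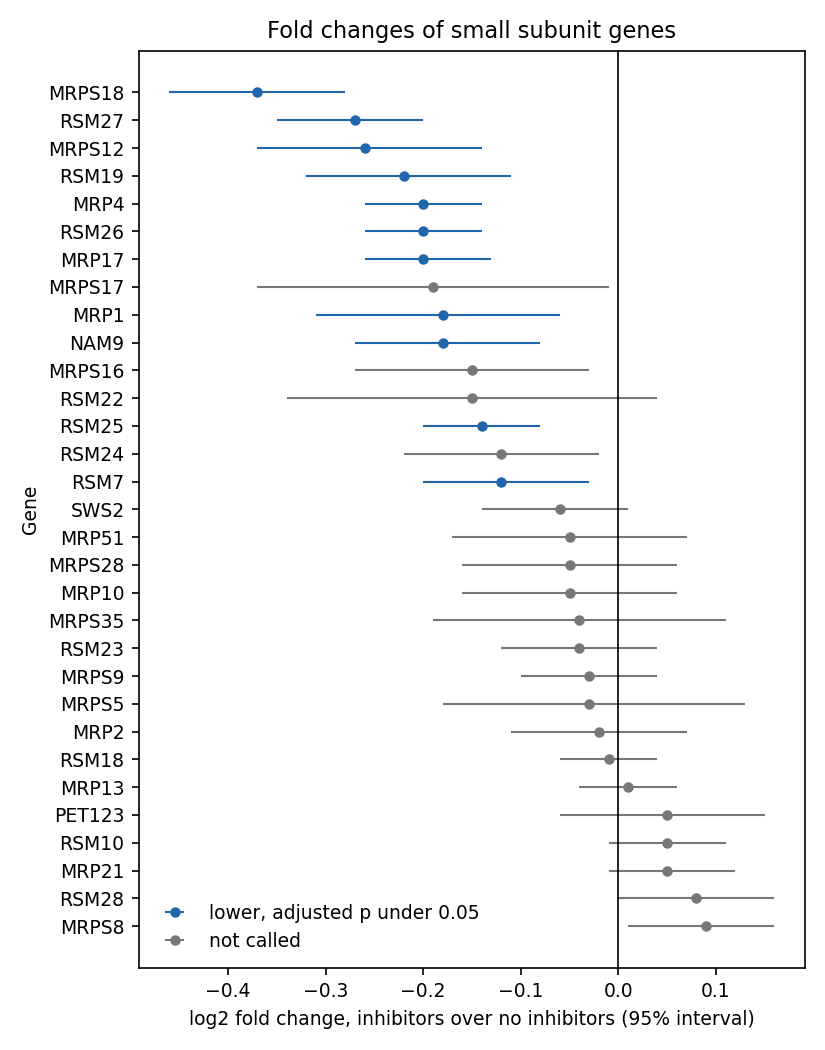
Log2 fold change (x axis, inhibitors over no inhibitors) of each of the 31 small subunit genes (y axis), as points with the 95% interval from limma as a bar, for 3 arrays against 3. Blue points mark the 11 genes that fell at an adjusted p under 0.05, and grey points the 20 that were not called. The points run from -0.37 at MRPS18 to 0.09 at MRPS8.

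The largest fall in this set was at MRPS18 (YNL306W), which encodes the counterpart of bacterial S11, a protein of the platform of the subunit. Its log2 signals were 8.74, 8.78 and 8.71 in the inhibitor cultures, against 9.08, 9.08 and 9.18 in the cultures without inhibitors. The highest inhibitor array thus lay well below the lowest array without inhibitors. The log2 fold change was -0.37 (adjusted p = 0.00165, SE 0.04). RSM27 (YGR215W), a mitochondria-specific protein gene with no bacterial counterpart, read 7.53, 7.63 and 7.57 with inhibitors, against 7.86, 7.84 and 7.84 without. RSM27 fell by 0.27 (adjusted p = 0.00222, SE 0.03), and its groups also lay clear of each other. Both calls held under all 16 alternative settings tried.

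MRPS12 and RSM19 are next to each other in the gene order of the R64 assembly, and both fell. MRPS12 (YNR036C) encodes the counterpart of S12, which in bacteria sits at the decoding site and bears on the accuracy of translation. Its signals were 9.40, 9.27 and 9.27 with inhibitors, against 9.57, 9.61 and 9.52 without, a log2 fold change of -0.26 (adjusted p = 0.00963, SE 0.05). RSM19 (YNR037C) encodes the counterpart of S19, a protein of the head of the subunit. It read 7.98, 7.99 and 7.97 with inhibitors, against 8.14, 8.16 and 8.28 without, and fell by 0.22 (adjusted p = 0.0114, SE 0.04). For RSM19 the 3 inhibitor arrays were nearly identical, and replicate 3 without inhibitors was the highest array.

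A further 3 genes fell by 0.20 each with little spread. MRP4 (YHL004W), the counterpart of S2, had 7.85, 7.82 and 7.79 with inhibitors and 8.04, 8.0 and 8.03 without (adjusted p = 0.00314, SE 0.03). RSM26 (YJR101W), a mitochondria-specific protein related in sequence to manganese superoxide dismutases, had 8.01, 7.96 and 7.95 with inhibitors and 8.19, 8.16 and 8.17 without (adjusted p = 0.00271, SE 0.02). MRP17 (YKL003C), the counterpart of the platform protein S6, had 8.07, 8.09 and 8.04 with inhibitors and 8.23, 8.27 and 8.28 without (adjusted p = 0.0034, SE 0.03). In each of the 3 genes all inhibitor arrays lay below all arrays without inhibitors, and the SD of either group was at most 0.032. RSM25 (YIL093C), another mitochondria-specific protein gene, showed a smaller and equally tight difference, with 6.79, 6.76 and 6.83 with inhibitors and 6.93, 6.95 and 6.91 without. It fell by 0.14 (adjusted p = 0.00927, SE 0.02).

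The remaining 3 falls depended on single arrays. MRP1 (YDR347W), like RSM26 related to superoxide dismutases, had 8.44, 8.35 and 8.49 with inhibitors and 8.54, 8.61 and 8.67 without, a fall of 0.18 (adjusted p = 0.0311, SE 0.05). Its call was lost without inhibitor replicate 1 or 2 (adjusted p = 0.0669 and 0.0747) and without no-inhibitor replicate 2 or 3 (adjusted p = 0.0849 and 0.0829). NAM9 (YNL137C), the counterpart of S4, which in bacteria binds ribosomal RNA early in assembly, had 8.04, 8.01 and 8.07 with inhibitors and 8.24, 8.14 and 8.26 without. It fell by 0.18 (adjusted p = 0.0162, SE 0.04), a call lost without inhibitor replicate 2 (adjusted p = 0.0556) or no-inhibitor replicate 1 (adjusted p = 0.0558). RSM7 (YJR113C), the counterpart of the head protein S7, was the gene closest to the threshold. It had 8.48, 8.56 and 8.46 with inhibitors and 8.59, 8.62 and 8.65 without, and fell by 0.12 (adjusted p = 0.0455, SE 0.04). The RSM7 call was lost without any 1 of 5 arrays, with adjusted p = 0.111 and 0.121 without inhibitor replicates 1 and 3 and adjusted p = 0.0668, 0.108 and 0.122 without no-inhibitor replicates 1, 2 and 3.

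**Figure D2:**
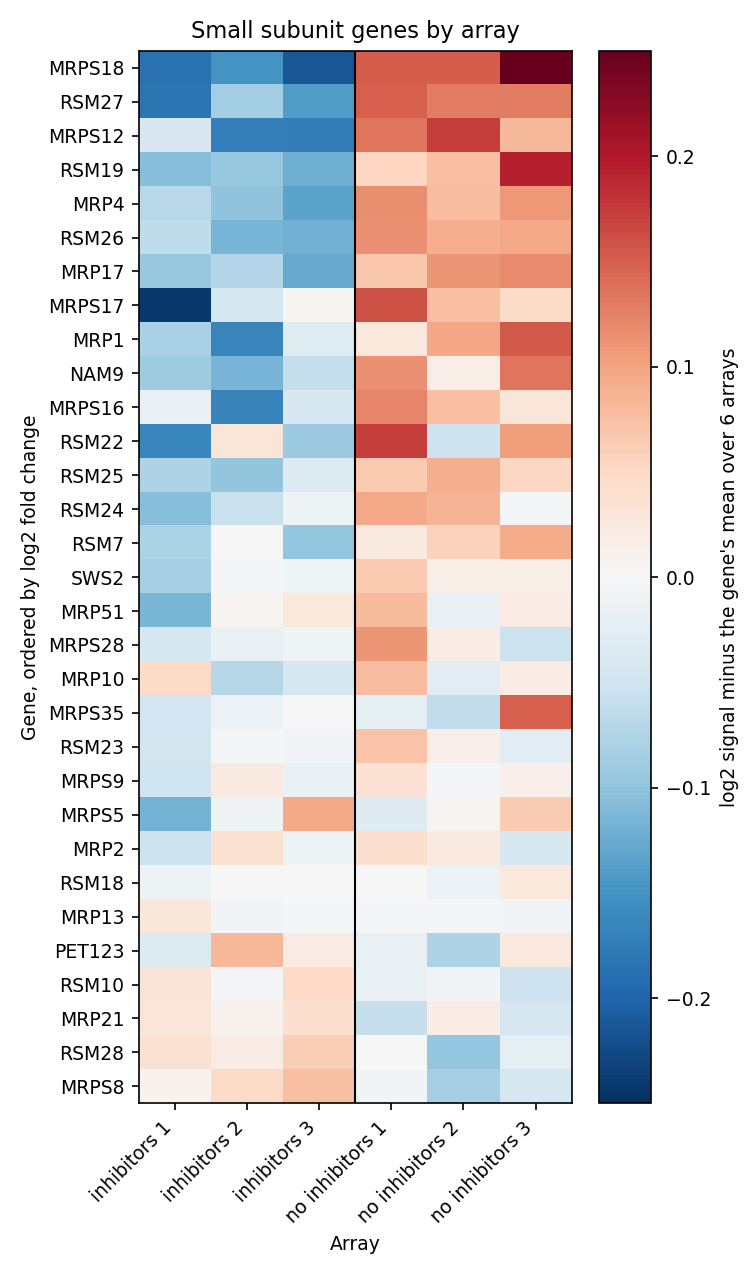
Log2 signal of each small subunit gene (rows, from the lowest log2 fold change at the top to the highest at the bottom) on each array (columns, inhibitors left of the line and no inhibitors right of it), as the difference from that gene's mean over the 6 arrays. Blue is below and red above the gene's mean. The upper rows, from MRPS18 to MRP17, are blue on all inhibitor arrays and red on all arrays without inhibitors, rows in the middle show mixed colours, and in the bottom row, MRPS8, every inhibitor array lies above every array without inhibitors.

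In 7 of the 20 genes that were not called (35.0%), the groups still did not overlap, against 22.8% of the 3149 genes not called over the whole table. Called or not, the groups did not overlap in 18 of the 31 genes (58.1%, against 55.4% of all genes). The inhibitor arrays lay entirely below the arrays without inhibitors in 15 genes (48.4%, against 29.3% of all genes) and entirely above them in 3 genes (9.68%, against 26.1% of all genes). MRPS17 (YMR188C), the counterpart of the body protein S17, read 8.53, 8.72 and 8.77 with inhibitors, against 8.93, 8.85 and 8.82 without. Inhibitor replicate 1 was far lower than the other two, and the log2 fold change of -0.19 had an adjusted p of 0.0909. MRPS16 (YPL013C), the counterpart of S16, read 9.21, 9.06 and 9.19 with inhibitors and 9.35, 9.31 and 9.26 without (log2 fold change -0.15, SE 0.05, adjusted p = 0.0567). It passed the threshold under 5 of the 16 alternative settings. RSM24 (YDR175C) read 7.36, 7.41 and 7.46 with inhibitors and 7.57, 7.56 and 7.47 without, so its groups were only narrowly apart (7.46 against 7.47). Its log2 fold change of -0.12 had an adjusted p of 0.0629, or 0.039 without no-inhibitor replicate 3. SWS2 (YNL081C), the counterpart of the head protein S13, read 8.14, 8.22 and 8.22 with inhibitors and 8.29, 8.24 and 8.24 without. The gap between its groups was smaller than the spread within them, and its log2 fold change was -0.06 (adjusted p = 0.158).

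The 3 genes with every inhibitor array above every array without inhibitors were MRPS8, RSM28 and RSM10. MRPS8 (YMR158W), the counterpart of the body protein S8, read 8.03, 8.06 and 8.09 with inhibitors and 8.01, 7.93 and 7.97 without, a log2 fold change of 0.09 (adjusted p = 0.0634, SE 0.03). It was called higher under quantile normalization (adjusted p = 0.0372) and with array weights (adjusted p = 0.0478). RSM28 (YDR494W), a mitochondria-specific protein whose altered forms suppress start codon defects of mitochondrial messages, read 7.86, 7.84 and 7.89 with inhibitors and 7.83, 7.73 and 7.80 without. The log2 fold change was 0.08 (adjusted p = 0.104, SE 0.03). RSM10 (YDR041W), the counterpart of the head protein S10, read 9.15, 9.11 and 9.17 with inhibitors and 9.10, 9.11 and 9.07 without (log2 fold change 0.05, adjusted p = 0.146). At 2 decimals its inhibitor replicate 2 and no-inhibitor replicate 2 were equal, so the separation is marginal. The nearest arrays of the 2 groups were also close for RSM28 (7.84 against 7.83) and MRPS8 (8.03 against 8.01).

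Among the genes that were not called, MRP51, MRP21 and PET123 encode proteins linked by yeast genetics to the recognition of the leaders of mitochondrial messages. Over all genes 42.2% were called in either direction. No list of genes with such a link was made, and the genes that fell were not sorted by it. The 3 therefore do not stand for all genes with such a link. MRP51 (YPL118W) read 9.07, 9.19 and 9.21 with inhibitors and 9.27, 9.17 and 9.21 without (log2 fold change -0.05, 95% interval -0.17 to 0.07). MRP21 (YBL090W), the counterpart of S21, read 6.73, 6.71 and 6.74 with inhibitors and 6.64, 6.72 and 6.66 without (log2 fold change 0.05, 95% interval -0.01 to 0.12). PET123 (YOR158W) read 8.34, 8.46 and 8.40 with inhibitors and 8.36, 8.30 and 8.40 without (log2 fold change 0.05, 95% interval -0.06 to 0.15). The groups overlapped in all 3 genes.

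The steadiest genes were RSM18 and MRP13. RSM18 (YER050C), the counterpart of the platform protein S18, read 9.33, 9.34 and 9.34 with inhibitors and 9.34, 9.33 and 9.37 without, so its 95% interval of -0.06 to 0.04 is narrow. MRP13 (YGR084C), a mitochondria-specific protein gene, read 7.77, 7.74 and 7.74 with inhibitors and 7.74 on each array without, with a 95% interval of -0.04 to 0.06. In bacteria S18 and S6 form a pair on the platform. Here the S6 counterpart MRP17 fell, with a log2 fold change of -0.20, beside -0.01 for RSM18, and the difference between these 2 fold changes was not tested.

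In the rest of the genes the groups overlapped. RSM22 (YKL155C), a protein related to methyltransferases, had the widest spread, with 5.70, 5.89 and 5.77 with inhibitors and 6.04, 5.81 and 5.97 without. Its log2 fold change of -0.15 had an SE of 0.08 and a 95% interval of -0.34 to 0.04, so a fall as large as that of RSM27 was not excluded at this precision. MRPS35 (YGR165W) read 7.16, 7.19 and 7.21 with inhibitors and 7.18, 7.15 and 7.36 without, and MRPS5 (YBR251W), the counterpart of S5, read 6.53, 6.64 and 6.74 with inhibitors and 6.62, 6.66 and 6.71 without. For MRPS35 the spread came mainly from no-inhibitor replicate 3, and for MRPS5 from the inhibitor arrays. The 95% intervals were -0.19 to 0.11 for MRPS35 and -0.18 to 0.13 for MRPS5. MRPS28 (YDR337W), the counterpart of S15, read 7.37, 7.40 and 7.40 with inhibitors and 7.53, 7.43 and 7.36 without. MRP10 (YDL045W-A), a small protein with paired cysteines, read 8.81, 8.69 and 8.72 with inhibitors and 8.84, 8.73 and 8.78 without. Both had a log2 fold change of -0.05 and a 95% interval of -0.16 to 0.06. RSM23 (YGL129C), whose animal counterpart is the death-associated protein DAP3, read 7.50, 7.54 and 7.54 with inhibitors and 7.62, 7.56 and 7.52 without, a log2 fold change of -0.04. MRPS9 (YBR146W), the counterpart of S9, read 9.63, 9.70 and 9.66 with inhibitors and 9.71, 9.68 and 9.69 without, a log2 fold change of -0.03. MRP2 (YPR166C), the counterpart of S14, read 8.03, 8.12 and 8.07 with inhibitors and 8.12, 8.11 and 8.04 without, a log2 fold change of -0.02. Over all 20 genes that were not called, the 95% intervals reached from -0.37 to 0.16, with half-widths of 0.05 to 0.19.

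The falls were spread over the structural groups of the subunit, whose counts are to be read against the 22.3% of all genes that fell. Of the 19 genes with a bacterial counterpart 7 fell (36.8%, median log2 fold change -0.064), and of the 12 mitochondria-specific genes 4 fell (33.3%, median -0.081). Placed by where the bacterial counterpart sits, 2 of 6 head genes fell (RSM19 and RSM7, group median -0.046), 2 of 6 body genes (MRPS12 and NAM9, group median -0.164) and 2 of 5 platform genes (MRPS18 and MRP17, group median -0.05). MRP4 and MRP51, assigned to S2 and S1, were placed in none of these regions. The groups are small, and no difference between them was tested.

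The arrays did not contribute equally. No-inhibitor replicate 1 was the highest of the 6 arrays for 14 of the 31 genes, and inhibitor replicate 1 was the lowest for 10. As the median over the 31 genes of the difference from each gene's mean, the inhibitor arrays lay at -0.063, -0.015 and -0.013 and the arrays without inhibitors at 0.065, 0.018 and 0.03. All 3 inhibitor arrays were below all 3 arrays without inhibitors, and replicate 1 of each group lay farthest out. Over all genes the same medians were -0.002, 0 and -0.009 with inhibitors and 0.017, -0.003 and 0 without, so no-inhibitor replicate 1 was also slightly high in general. Without inhibitor replicate 1 the median log2 fold change of the 31 genes was -0.081, and without no-inhibitor replicate 1 it was -0.065, against -0.064 with all arrays. Each of these arrays left out in turn gave 9 falls (29.0%) and 0 rises among the 31 genes. Over all genes 20.5% fell and 18.8% rose without inhibitor replicate 1. Without no-inhibitor replicate 1, 15.9% of all genes fell and 17.2% rose.

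**Figure D3:**
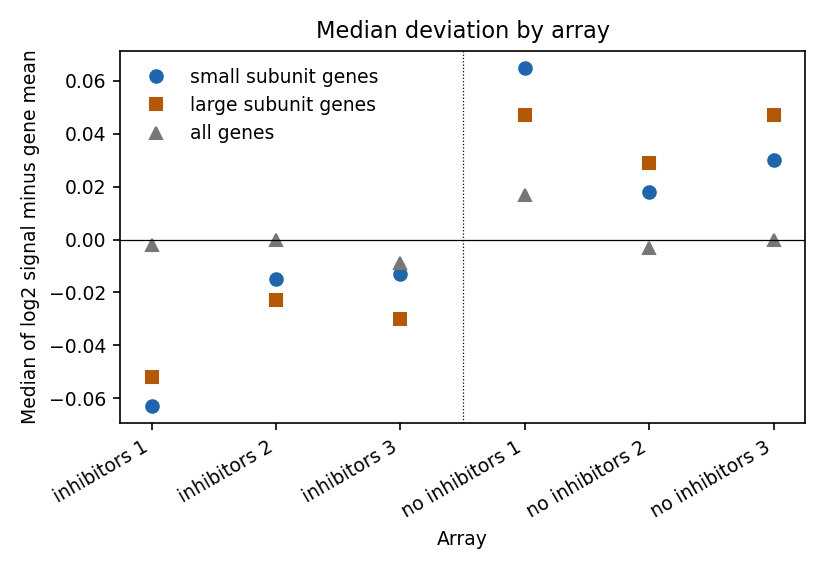
Median over genes of the log2 signal minus each gene's mean over the 6 arrays (y axis), by array (x axis, inhibitors left of the dotted line), for 31 small subunit genes (circles), 44 large subunit genes (squares) and all 5449 genes (triangles). For both subunits the 3 inhibitor arrays lie below 0 and the 3 arrays without inhibitors above it, and the small subunit runs from -0.063 to 0.065.

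Of 44 large subunit genes 15 fell (34.1%, against 22.3% of all genes) and 4 rose (9.09%, against 19.9%), with a median log2 fold change of -0.067. The largest falls were those of RTC6, the counterpart of bacterial L36, with a log2 signal of 7.92 ± 0.019 with inhibitors and 8.36 ± 0.004 without (SD, n = 3 each; log2 fold change -0.45, adjusted p = 0.000333), and of MRPL36, MRPL4 and RML2, which fell by 0.27, 0.24 and 0.24. Adjusted p was 0.00412 for MRPL36, 0.0047 for MRPL4 and 0.00801 for RML2 in limma. Rises were called for MRPL10, MRPL24, MRPL19 and MHR1, with log2 fold changes of 0.19, 0.17, 0.16 and 0.07. These 4 were named after their values were seen, and that of MHR1 (adjusted p = 0.0446) was lost in 5 of the 6 fits that left out 1 array. MHR1 kept it only without inhibitor replicate 1, and without no-inhibitor replicates 1, 2 and 3 and inhibitor replicates 2 and 3 it had adjusted p = 0.0909, 0.106, 0.108, 0.127 and 0.12. The small subunit had 0 rises beside the 4 of the large subunit, and whether the subunits differ was not tested.

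**Figure D4:**
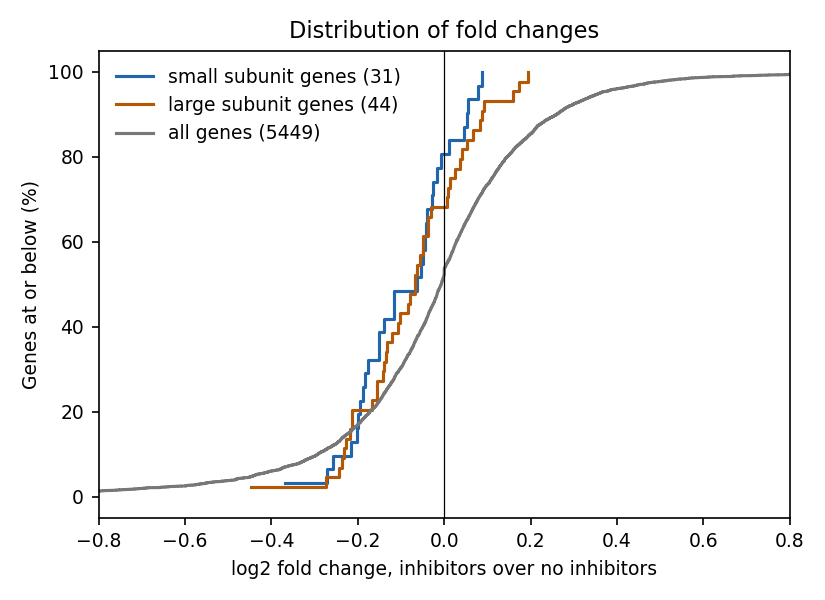
Cumulative share of genes in percent (y axis) at or below a given log2 fold change (x axis, inhibitors over no inhibitors) for 31 small subunit genes, 44 large subunit genes and all 5449 genes. The curves of both subunits lie within -0.45 to 0.19 and cross 50% at -0.064 and -0.067, against -0.007 for all genes, whose tails reach beyond the axis on both sides.

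Of 4 further small subunit protein genes outside the 31, COX24 (listed as QRI5), EHD3 and FYV4 were measured and none was called. Over all genes 42.2% were called in either direction. The log2 fold change was -0.06 for QRI5 (adjusted p = 0.341) and 0.02 for FYV4 (adjusted p = 0.734). EHD3 lay at the floor of the values in both groups, at 2.21 with inhibitors and 2.22 without, where a fall could not be seen. The platform annotation listed no probe set for the fourth, VAR1, so it had no value here.

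Over 101 measured genes of the 7 further lists of mitochondrial protein synthesis together, the large subunit included, 36 fell (35.6%, against 22.3% of all genes) and 6 rose (5.94%, against 19.9%), with a median of -0.084. Without no-inhibitor replicate 1 the count of falls was 22 (21.8%), against 15.9% of all genes in that fit. The smaller lists below have 4 to 17 genes each, and no difference of a list from all genes was tested. Among 9 translation factors 3 fell (33.3%) and 1 rose (11.1%). TUF1, the elongation factor that brings transfer RNA to the ribosome, had a log2 signal of 9.92 ± 0.096 with inhibitors and 10.28 ± 0.099 without (SD, n = 3 each) and fell by 0.36 (adjusted p = 0.0121, SE 0.07). GUF1 and MEF2 fell by 0.16 and 0.13, and the ribosome recycling factor gene RRF1 rose by 0.15. The last 3 calls were close to the threshold (adjusted p = 0.0414, 0.045 and 0.0326), and each was lost in at least 4 of the 6 fits that left out 1 array. The list had 1 fall in the fit that left out inhibitor replicate 3, and likewise for replicates 1 and 3 without inhibitors, and 0 rises without no-inhibitor replicate 1 or inhibitor replicate 1, 2 or 3.

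Of 17 activators, proteins that start translation of or stabilise single mitochondrial messages, 7 fell (41.2%, against 22.3% of all genes) and 0 rose. For rises the background was again 19.9% of all genes, and none was higher at an unadjusted p under 0.05, while 1 was called higher under quantile normalization. PET122, one of the uncalled activators, read 2.25 on every array, close to the floor of the values, where changes are understated. ATP22, needed for the message of an ATP synthase subunit, fell by 0.48 (adjusted p = 0.0065, SE 0.08), and CBP1, which stabilises the cytochrome b message, by 0.40 (adjusted p = 0.0281, SE 0.10). AEP3 and MSS51 fell by 0.20 and 0.14. The count of falls was 2 (11.8%, against 15.9% of all genes) without no-inhibitor replicate 1. It was 3 (17.6%) without no-inhibitor replicate 3 or any of the inhibitor replicates, in fits where 16.5% to 20.5% of all genes fell. In these 5 fits the share was thus near or below that of all genes. The CBP1 call was among those lost in each of these 5 fits (adjusted p = 0.0803, 0.0631, 0.0509, 0.0574 and 0.0741, the inhibitor replicates last). Without no-inhibitor replicate 2 the count was 6 (35.3%, against 17.9% of all genes). At an adjusted p under 0.01 it was 1 (5.88%, against 10.7% of all genes). The calls of AEP3 (adjusted p = 0.0408) and MSS51 (adjusted p = 0.0178) were lost in 5 and 4 of the 6 fits that left out 1 array.

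Of 13 mitochondrial aminoacyl-tRNA synthetase genes 6 fell (46.2%, against 22.3% of all genes). The count was 3 (23.1%) without no-inhibitor replicate 1 or without inhibitor replicate 2, in fits where 15.9% and 16.5% of all genes fell. MSK1, for lysine, fell by 0.43 (adjusted p = 0.00101, SE 0.04), ISM1, for isoleucine, by 0.22, MSF1, for phenylalanine, by 0.20 and SLM5, for asparagine, by 0.19. The SLM5 call (adjusted p = 0.0312) was lost without any of the no-inhibitor replicates (adjusted p = 0.0833, 0.0633 and 0.0917) and without inhibitor replicate 2 (adjusted p = 0.0671). Of 11 genes for ribosomal RNA, its modification and ribosome assembly 3 fell (27.3%, close to the 22.3% of all genes). The ribosomal RNA methyltransferase gene MRM1 fell by 0.26 (adjusted p = 0.00739), the RNA helicase gene MSS116 fell by 0.24 (adjusted p = 0.0162), and CCM1, whose product stabilises the small subunit's ribosomal RNA, fell by 0.23 (adjusted p = 0.0169). None of the 11 rose, although 1 was higher at an unadjusted p under 0.05 and 1 was called higher without inhibitor replicate 2. The count of falls depended on the setting. It was 5 (45.5%) under quantile normalization and with each array centred on its median, where 20.7% and 24.3% of all genes fell. Without no-inhibitor replicate 1 the count of falls was 1 (9.09%, against 15.9% of all genes in that fit). CCM1 then had an adjusted p of 0.0501 and MSS116 of 0.0542. CCM1 was also lost without no-inhibitor replicate 3 (adjusted p = 0.0561), and MSS116 without inhibitor replicate 3 (adjusted p = 0.0506).

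Genes for inserting the new proteins into the inner membrane moved both ways. MDM38 and MBA1, which bind the mitochondrial ribosome at the membrane, each fell by 0.21 (adjusted p = 0.00206 and 0.00529). YLH47, a relative of MDM38, rose by 0.33, with a log2 signal of 8.04 ± 0.015 with inhibitors and 7.71 ± 0.046 without (SD, n = 3 each; adjusted p = 0.00119). For the insertase gene OXA1 the log2 fold change was -0.05 (adjusted p = 0.266).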

How the data were processed

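The values are log2 signals per probe set as deposited by the authors. The submitters' processing notes name GCRMA and limma and give no versions. GCRMA adjusts for probe-sequence background and normalizes across arrays, so low signals sit at a floor (2.21 here) and changes near it are understated. The small subunit genes lay between 5.70 and 9.71. No further normalization was applied. The platform annotation paired 5498 probe sets with 1 gene of S. cerevisiae, and symbols were updated through the RefSeq table of assembly R64, which also gave the gene order. Where a gene had several probe sets (47 genes), that with the highest mean signal stood for it. The array annotation names no genome build, so no coordinates are given.

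Groups of 3 and 3 arrays were compared over 5449 genes in limma 3.58.1 under R 4.3.3 (empirical Bayes moderation, two-sided, group as the single factor, Benjamini-Hochberg adjustment, threshold 0.05). The 95% intervals come from the same fit and are not adjusted. The fit was tested on simulated data with independent noise and fewer changed genes than were called here. That check required recovery only of changes larger than any of the 31 genes showed. Across genes, r between arrays was 0.998 to 0.999 inside a group and 0.989 to 0.994 between groups. The median within-group SD was 0.044 for the small subunit genes and 0.059 for all genes. Precision is limited by the number of arrays. The named genes were the 31 members, up to 4 called genes of each other list by size of change, and lists of 4 or fewer genes in full. The members and lists were chosen with earlier results of these data known. Alternatives covered normalization, an intensity filter, moderation, array weights, a block for the replicate number, probe sets, the threshold and leaving out each replicate. RNA quality was not checked. Figures were drawn with matplotlib 3.10.9.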

Additional observations from a re-analysis of the deposited data

How the results depend on the processing

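Under 16 alternative settings none of the 11 called small subunit genes changed sign, and 6 of them (MRPS18, RSM27, MRPS12, MRP4, RSM26 and MRP17) passed in each, while RSM19 missed only the stricter threshold. The median log2 fold change of the 31 genes stayed between -0.089 and -0.055. At an adjusted p under 0.01, which must lower counts, 608 genes were higher and 582 lower (10.7%). At that threshold 7 small subunit genes (22.6%) and 15 genes of the other lists (14.9%) were lower. Quantile normalization gave 1248 genes higher (22.9%) and 1126 lower (20.7%). It gave 1 small subunit gene higher (MRPS8, 3.23%) and 9 lower (29.0%), as MRP1 and RSM7 were lost (adjusted p = 0.0688 and 0.0626). Array weights gave 1 higher (MRPS8) and 12 lower, with RSM7 lost (adjusted p = 0.0812) and MRPS16 and RSM24 gained. RSM7 was also lost with robust moderation (adjusted p = 0.0514). With any single array left out, 855 to 1023 genes were called higher (15.7% to 18.8%) and 868 to 1117 lower (15.9% to 20.5%). Then 0 small subunit genes were higher and 9 to 10 lower (29.0% to 32.3%), with a median of -0.089 to -0.065. Of the other lists 4 to 6 genes were higher (3.96% to 5.94%) and 22 to 33 lower (21.8% to 32.7%). With the replicate number as a block, 774 genes were higher and 810 lower (14.9%), with 8 small subunit genes (25.8%) and 22 genes of the other lists (21.8%) lower. MRP1, RSM25 and RSM7 were then at adjusted p = 0.0511, 0.0552 and 0.102. Arrays with the same number correlated at r = -0.22, -0.248 and -0.199 in their deviations from the group means. No array correlated best with its own number. Arrays of different number correlated at r = 0.046 to 0.176, so arrays of the same number tended to deviate in opposite directions. A shift of arrays of the same number in the same direction was thus not seen. Whether the cultures were run in pairs cannot be told from these correlations. Genes near 0 changed sign without being called: under quantile normalization MRP13 stood at -0.006 and RSM18 at 0.01, and with 1 array left out MRPS35 ranged from -0.083 to 0.023, RSM18 from -0.017 to 0.003, MRP13 from -0.001 to 0.016, MRP2 from -0.042 to 0.003, MRPS5 from -0.079 to 0.028, EHD3 from -0.004 to 0 and FYV4 from -0.017 to 0.072. Of the 26 called genes named from other lists none changed sign, and 10 lost their call without 1 or more of the arrays.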

Other observations

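The arrays also carry fission yeast probe sets, 20 of which bear the name of 1 of the 31 small subunit genes in fission yeast. The labels name no fission yeast RNA on the arrays. Their log2 signals lay between 2.21 and 2.27 on all 6 arrays, at the floor of the values, while the lowest value of any small subunit gene of S. cerevisiae was 5.70, at RSM22 with inhibitors.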
